A study of Mus with 12 samples.

Results

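The genes described here are the nuclear genes for the respiratory chain and the ATP synthase, measured in whole mouse blood. Members were all rows of the blood table whose symbol begins with Nduf, Uqcr, Atp5 or Cox4 to Cox8, or is Sdha, Sdhb, Sdhc or Sdhd, without names that contain -ps and without rows that are not protein coding. Of 25247 genes, 102 matched the names and 89 remained, 10 having been set aside for their names and 3 for their type. Grouped by symbol alone, the members comprised 37 genes of complex I and 8 Ndufaf genes for complex I assembly factors. There were 4 of complex II, 8 of complex III, 15 of complex IV and 17 of complex V. Symbols were not checked against the complex of the protein, as for Ndufa4, which was counted in complex I. The gene ontology text of the table fitted the label, since 89 of 89 members carried a mitochondrial term and 78 carried the mitochondrial inner membrane.

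RNA from blood of female BALB/c mice, 6 weeks of age at purchase, was sequenced in 12 libraries, in 4 groups of 3. The study's groups held more mice than that, and whether each library came from 1 mouse is not stated. Solvent mice received only the acetone and olive oil vehicle. DNCB mice were sensitised on the skin with 1% 2,4-dinitrochlorobenzene and challenged with a 0.5% solution, which gives a dermatitis that resembles atopic dermatitis. The scMSC and scivMSC mice had the same DNCB treatment and 4 injections of 2000000 human umbilical cord mesenchymal stem cells (MSC) from day 13 to day 25. The cells were given in 100 μL under the skin beside the lesion in scMSC, and as 50 μL under the skin plus 50 μL into the tail vein in scivMSC. Blood was taken on day 30. The comparisons ask what DNCB changed, what each route of MSC injection changed in DNCB mice, and whether the routes differed.

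The chain moves electrons from NADH through complex I, and from succinate through complex II, to coenzyme Q, then through complex III and cytochrome c to complex IV, where oxygen is reduced. Complexes I, III and IV pump protons, and complex V, the ATP synthase, uses the gradient to make ATP. Complex II is encoded wholly in the nucleus, whereas the other complexes also contain subunits from the mitochondrial genome. In blood, leukocytes and platelets hold mitochondria, reticulocytes lose theirs as they mature, and mature red cells have none.

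The libraries held between 52179764 and 65139421 estimated counts, and haemoglobin genes took between 91.3% and 95.6% of the summed FPKM (a fragment density relative to gene length and library total). The members together took between 0.0442% and 0.114% of the counts. In scivMSC replicate 2 only 11806 genes had 4 or more counts, the lowest number of any library, and the others had 13159 to 17350. Tests used total-count scaling, the scale of the FPKM values, and a call needed a Benjamini-Hochberg adjusted p under 0.05 together with a change of more than 2-fold. Of the members, 72 passed the filter of FPKM of at least 1 in 3 libraries and were among the 5527 genes tested. On this scale the median log2 change of all tested genes was 0.06 for DNCB against Solvent. It was -0.63 for scMSC and -1.53 for scivMSC, each against DNCB. TMM scaling, which assumes that most genes do not change, moved the 3 medians to -0.09, 0.06 and 0.04. Changes of the members are therefore given on both scales, and beside the median of all genes.

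Complex IV and complex I contributed most to the summed FPKM of the members and complex II least. The highest single levels were those of Cox8a, a small membrane subunit of complex IV, and Ndufa1, a small accessory subunit of complex I, with mean FPKM of 47.2 and 39.1 over the 12 libraries. The catalytic ATP synthase subunit Atp5b followed at 26.3. No complex II gene exceeded 3.83. The Ndufaf assembly factors had low FPKM, with means from 0.0208 to 0.725, and only Ndufaf8 was tested among the 8. Counts of the others reached 210 in a library, for Ndufaf4. Levels of different genes are compared here as FPKM, whose length term, recovered from count and FPKM, ran from 445 bases for Ndufa1 to 8677 bases for Ndufs1. Such values are longer than a mature transcript of several members, as for Atp5l with 6839 bases, which lowers their FPKM relative to genes with short annotated exons.

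The complex II sum was 17.9, 11.4 and 9.39 FPKM in the Solvent libraries, 13.8, 21.0 and 13.04 in DNCB, 7.74, 5.35 and 6.82 in scMSC, and 7.06, 1.69 and 3.28 in scivMSC. All 6 libraries from mice given MSC lay below all 6 others. For complex IV, the sums were 208.2, 139.8 and 137.8 FPKM in Solvent, 177.0, 196.7 and 185.9 in DNCB, 133.4, 102.6 and 136.5 in scMSC, and 178.7, 116.0 and 121.4 in scivMSC. Here scivMSC overlapped with Solvent, with scMSC and, through replicate 1, with DNCB. As in complex II, the scMSC libraries lay below all Solvent and DNCB libraries in complexes I, III, IV and V. In single genes, the FPKM of scMSC and scivMSC lay below DNCB without overlap in 49.8% and 67.9% of all tested genes.

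**Figure D1:**
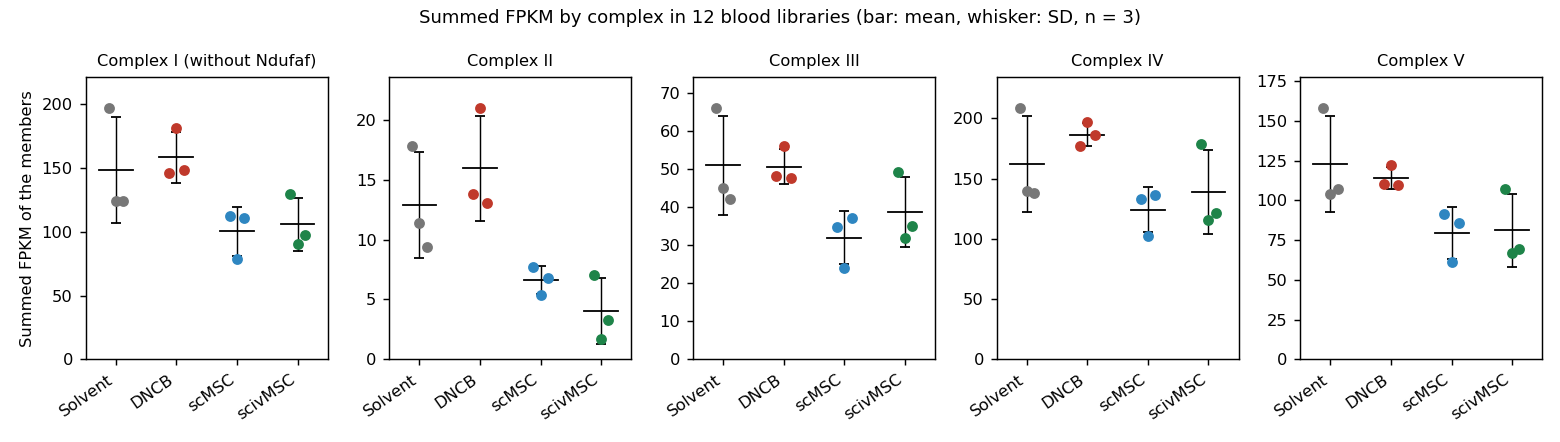
Summed FPKM of the members of each complex (y axes, linear from 0) in the 4 groups (x axes). Points are libraries, bars means and whiskers SD of 3 libraries. In complex II the 6 MSC libraries, at 1.69 to 7.74, lie below all Solvent and DNCB libraries, at 9.39 to 21.0. In complexes I, III, IV and V the scivMSC libraries overlap with those of Solvent, while the scMSC libraries lie below all Solvent and DNCB libraries.

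No member was called in DNCB against Solvent, where 20.5% of all tested genes were called in either direction by edgeR. At an unadjusted p under 0.05, 2 of 72 members (2.78%) differed by edgeR, where 33.1% of all tested genes did, and DESeq2 called 3, all lower. The median log2 change of the members was -0.04, with a range from -1.18 to 0.77. Sdhd, a membrane anchor of complex II, had the highest value, with an FPKM of 6.06, 3.75 and 2.68 in Solvent and 6.44, 9.55 and 5.35 in DNCB. These groups overlapped, and its log2 change of 0.77 (SE 0.49, adjusted p = 0.291) did not pass the test. Ndufa5, an accessory subunit of complex I, had the lowest value, -1.18 (SE 0.54, adjusted p = 0.140). The lowest Ndufa5 level in Solvent, an FPKM of 1.11, lay above the highest in DNCB, 0.784. Under TMM Ndufa5 and the complex I core subunit Ndufs3 were called lower in DNCB, at -1.27 and -1.26, where 11.5% of tested genes were called lower. All 6 tested complex I core subunits had values below 0, from -1.07 to -0.32, on the total-count scale, with Ndufs3 alone called under TMM.

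In scMSC against DNCB, 4 of 72 members (5.56%) were called lower and 0 higher, where 24.9% of all tested genes were called lower. The members' median was -0.66, close to the -0.63 of all tested genes, and 69 of 72 members lay below 0. Under TMM the members' median was 0.01, with 1 member higher, where 8.74% of tested genes were, and 0 lower, so on that scale none of these 4 was called. The 4 were Sdhd, at -1.41 (SE 0.50, adjusted p = 0.0438), Ndufa8, Sdha and Atp5pb. Sdha, the flavoprotein that oxidises succinate, had an FPKM of 3.80, 5.54 and 3.90 in DNCB and 2.26, 1.79 and 1.80 in scMSC. Its groups did not overlap, and it was lower by a log2 change of -1.19 (SE 0.42, adjusted p = 0.0440). Atp5pb, a subunit of the peripheral stalk of the ATP synthase, had 5.15, 6.95 and 4.63 in DNCB and 3.06, 1.90 and 2.83 in scMSC, without overlap. Its log2 change was -1.11 (SE 0.34, adjusted p = 0.0225). Ndufa8, an accessory subunit of complex I, had -1.38 (SE 0.50, adjusted p = 0.0480). The FPKM ranges of the 2 groups did not overlap in 46 members, all lower in scMSC (63.9%), where 49.8% of all tested genes were lower without overlap.

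The count of 4 rested on several single libraries. It was 0 without DNCB replicate 2, scMSC replicate 2 or scMSC replicate 3, and 1 without Solvent replicate 2 or scMSC replicate 1. It was 2 without DNCB replicate 1, DNCB replicate 3 or scivMSC replicate 3, 9 without scivMSC replicate 2 and 10 without scivMSC replicate 1. In the last 2 fits 1713 and 1670 of all 5527 tested genes were called lower.

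Ndufs4, an accessory subunit needed for a stable complex I, had the highest value in scMSC against DNCB, 0.43 (SE 0.35, adjusted p = 0.385). Its FPKM was 1.63, 2.15 and 1.41 in DNCB and 2.07, 2.08 and 2.89 in scMSC, with overlap of the groups. Under TMM it was the member called higher, at 1.13 (adjusted p = 0.00364).

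In scivMSC against DNCB the members ranged from genes that fell on the total-count scale to genes that stayed near the DNCB level. On that scale 22 of 72 (30.6%) were called lower and 0 higher, where 62.0% of all tested genes were called lower. The median of the members was -0.88, above the -1.53 of all tested genes, and 60 of 72 members lay above that median. Under TMM the same comparison called 27 members (37.5%) higher and 0 lower, with a median of 0.66, where 20.6% of all tested genes were called higher. No member was called in the same direction on both scales, and none was called in opposite directions, so the 22 and the 27 were different genes. The remaining 23 tested members were called on neither scale. Relative to the median gene on the total-count scale, the members ran from -0.87 for Sdhd to 1.82 for Cox6b2.

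The 22 lower members comprised 8 of complex I, 3 of complex II, 2 of complex III, 2 of complex IV and 7 of complex V. The 27 that were higher under TMM comprised 9 of complex I, 0 of complex II, 4 of complex III, 8 of complex IV and 6 of complex V. The 22 became 40 without scivMSC replicate 1 and 18 without scivMSC replicate 2, the library with the fewest detected genes. In those fits 3903 and 3056 of all 5527 tested genes were called lower. In 36 members (50.0%) all scivMSC libraries lay below all DNCB libraries in FPKM, where 67.9% of all tested genes did. In whole blood, fewer cells of a type and less RNA per cell cannot be told apart.

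**Figure D2:**
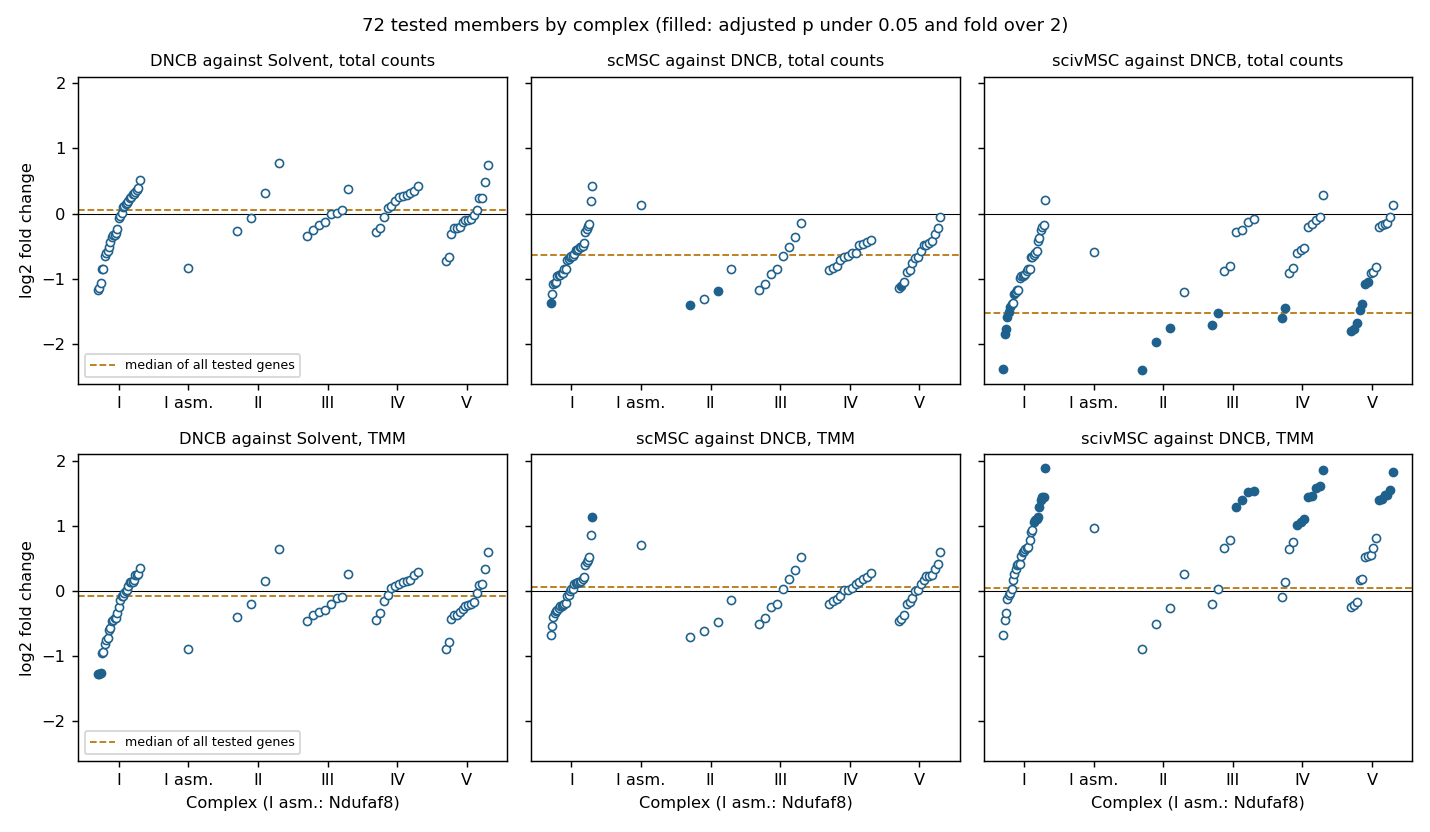
Log2 fold changes (y axes) of the 72 tested members by complex (x axes) in 3 comparisons, with total-count scaling in the upper row and TMM scaling in the lower row. Filled points passed an adjusted p under 0.05 and a fold over 2, and dashed lines mark the median of all tested genes. In scivMSC against DNCB the filled points are 22 lower members under total-count scaling and 27 higher members under TMM, and complex II has none of the latter.

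Complex II was the complex that lay lowest against DNCB in both MSC groups. The medians of its 4 genes were -1.25 in scMSC and -1.86 in scivMSC, beside -0.63 and -1.53 for all tested genes. In scivMSC 3 of the 4 were called lower, where 62.0% of all tested genes were. Under TMM the complex II medians were -0.55 and -0.39, with 0 genes called, beside 0.06 and 0.04 for all tested genes. With Solvent as the reference, the complex II median in scivMSC was -1.64 on total counts. All tested genes had -1.47 there, and the complex I core subunits lay lower, at -2.09. Sdhd (chromosome 9, 50596357 to 50603812) had an FPKM of 6.44, 9.55 and 5.35 in DNCB and 2.24, 0.485 and 1.31 in scivMSC. The groups did not overlap, and the log2 change was -2.40 (SE 0.52, adjusted p = 0.000791), the largest fall of any member. Under TMM it was -0.90 (adjusted p = 0.00937), under the fold threshold. The values in scivMSC rested on 160, 34 and 92 counts.

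Sdhb (chromosome 4, 140961203 to 140979193), the iron-sulfur subunit, had 2.47, 4.04 and 2.74 in DNCB and 1.45, 0.346 and 0.538 in scivMSC, again without overlap. Its log2 change was -1.97 (SE 0.49, adjusted p = 0.00229) and -0.51 under TMM. Sdha (chromosome 13, 74322254 to 74350280) fell to 2.23, 0.570 and 1.12 in scivMSC, with a log2 change of -1.75 (SE 0.43, adjusted p = 0.00197) and -0.27 under TMM. Sdhc (chromosome 1, 171127165 to 171150603), the other membrane anchor, had 1.12, 1.84 and 1.05 in DNCB and 1.13, 0.286 and 0.320 in scivMSC. Its scivMSC replicate 1 overlapped with DNCB, and -1.20 (SE 0.53, adjusted p = 0.0528) did not pass the test and had the opposite sign under TMM, at 0.26. In every complex II gene scivMSC replicate 1 was the highest of its group.

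Within complex I, 8 of 31 tested subunits were called lower in scivMSC against DNCB, and 4 of them were among the 6 tested core subunits. These 4 were 66.7% of the core subunits tested, beside 62.0% called lower among all tested genes, and the core median of -1.47 lay beside -1.53 for all tested genes. The core subunits carry the flavin and the iron-sulfur clusters that pass electrons from NADH to coenzyme Q. Ndufs7 had an FPKM of 1.76, 1.89 and 1.77 in DNCB and 0.906, 0.0974 and 0.468 in scivMSC. The groups did not overlap, with a log2 change of -1.85 (SE 0.59, adjusted p = 0.0108). Ndufv1, which binds NADH, had -1.51 (adjusted p = 0.0208), and Ndufs8 had -1.43 (adjusted p = 0.0446). Ndufs3 had -0.99 and Ndufv2 -0.96 without a call, and Ndufs1 did not pass the filter, with a mean FPKM of 0.623. Under TMM the 6 core values lay between -0.45 and 0.61 with none called.

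Of the other 25 tested complex I subunits, 4 (16.0%) were called lower and 9 (36.0%) were higher under TMM. Of all tested genes, 62.0% and 20.6% were. The lower 4 were Ndufa8, Ndufb7, Ndufa6 and Ndufv3. Ndufa8 had an FPKM of 3.75, 8.80 and 4.70 in DNCB and 1.43, 1.20 and 0.636 in scivMSC, without overlap. Its log2 change was -2.39 (SE 0.52, adjusted p = 0.000810) and -0.68 under TMM. Ndufa1, the most abundant complex I gene, had 46.1, 53.6 and 47.5 in DNCB and 43.9, 39.7 and 40.5 in scivMSC. These groups did not overlap, but its log2 change of -0.25 (SE 0.27, adjusted p = 0.422) did not pass the test, and under TMM it was called higher, at 1.44. Ndufa2 and Ndufb11, the next in abundance, had -0.60 and -0.37, not called, and were called higher under TMM at 1.08 and 1.28. Ndufs4 was above 0 on both scales, at 0.21 and 1.88, the latter called. The assembly factor Ndufaf8 had -0.59 (SE 0.94, adjusted p = 0.585), and its libraries ranged from 0 to 1.93 FPKM.

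Complex III also held members of both kinds. The core protein Uqcrc1 and the Rieske iron-sulfur protein Uqcrfs1 were called lower in scivMSC against DNCB, at -1.71 (SE 0.46, adjusted p = 0.00404) and -1.52 (SE 0.46, adjusted p = 0.00864), and under TMM they lay at -0.20 and 0.03 without a call. Uqcrh, the hinge protein at the cytochrome c side, had an FPKM of 17.2, 16.0 and 19.8 in DNCB and 18.0, 14.8 and 11.7 in scivMSC. The groups overlapped, and its log2 change was -0.26 (SE 0.30, adjusted p = 0.444). Uqcr10 and Uqcr11 had -0.14 and -0.08, not called. Under TMM Uqcrh, Uqcr10 and Uqcr11 were called higher, at 1.39, 1.53 and 1.52. In scMSC against DNCB, Uqcrh had -0.85 with an adjusted p of 0.0418, under the fold threshold, and its libraries of 10.2, 7.83 and 11.6 lay below all of DNCB.

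In complex IV, which reduces oxygen, 2 of 12 tested genes (16.7%) were called lower in scivMSC against DNCB. Under TMM 8 (66.7%) were called higher. Of all tested genes, 62.0% were called lower and 20.6% higher under TMM. Cox7a2l, known for its part in joining complexes III and IV into supercomplexes, had an FPKM of 15.9, 20.1 and 18.3 in DNCB and 10.1, 3.82 and 3.90 in scivMSC. The groups did not overlap, and the log2 change was -1.61 (SE 0.43, adjusted p = 0.00399), near the median gene, with -0.10 under TMM. Cox5b had -1.44 (SE 0.43, adjusted p = 0.00773) and 0.14 under TMM. Its neighbour in the complex, Cox5a, had -0.84 with an adjusted p of 0.0485, under the fold threshold. Cox8a had 52.8, 56.2 and 53.3 in DNCB and 62.0, 39.7 and 43.3 in scivMSC. Its scivMSC libraries lay on both sides of DNCB, and its log2 change was -0.17 (SE 0.27, adjusted p = 0.591) on the total-count scale and 1.45, called, under TMM. Cox6a1 and Cox4i1 had -0.52 and -0.61, not called, against 1.10 and 1.02 under TMM.

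Several complex IV subunits have isoforms that differ between tissues. The ubiquitous forms Cox6a1, Cox7a2 and Cox8a were well detected, with Cox7a2 at a group mean of 4.93 to 8.33 FPKM. The forms known from heart and skeletal muscle were near 0, with maxima over the 12 libraries of 0.101 FPKM for Cox6a2, 0.537 for Cox7a1 and 0.719 for Cox8b. Cox4i2, Cox7b2 and Cox8c were not analysed here. Cox6b1 had a group mean of 12.0 to 17.8 FPKM. Cox6b2, known as the testis form of the same subunit, was also detected, with an FPKM of 5.63, 3.45 and 5.48 in Solvent, 6.34, 4.11 and 8.11 in DNCB, 4.31, 4.14 and 5.32 in scMSC and 9.12, 5.91 and 7.70 in scivMSC. Its scivMSC libraries lay above all Solvent and scMSC libraries but overlapped with DNCB. Against DNCB its log2 change in scivMSC was 0.29 (SE 0.36, adjusted p = 0.488), the highest of any member, and 1.86 under TMM. Cox7a2 had -0.10 and Cox7b -0.20, not called, and Cox6b1 had -0.56. Under TMM Cox7a2, Cox7b and Cox6b1 were called higher, at 1.59, 1.44 and 1.06.

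In complex V, 7 of 16 tested genes (43.8%) were called lower in scivMSC against DNCB, where 62.0% of all tested genes were. Another 6 (37.5%) were higher under TMM, where 20.6% of all tested genes were. Atp5d and Atp5c1, parts of the central stalk that turns within the catalytic head, had log2 fold changes of -1.81 (SE 0.43, adjusted p = 0.00177) and -1.68 (SE 0.46, adjusted p = 0.00421). Atp5g2, a gene for the proton-carrying c ring, had an FPKM of 3.16, 4.02 and 2.54 in DNCB and 1.45, 0.526 and 0.862 in scivMSC. The groups did not overlap, and it had -1.77 (SE 0.44, adjusted p = 0.00216). Atp5pb, Atp5j, Atp5j2 and Atp5o were also called lower, between -1.48 and -1.06. Under TMM none of these 7 was called, and their values lay between -0.25 and 0.56. Atp5b had 27.1, 26.5 and 31.8 in DNCB and 30.3, 20.7 and 22.9 in scivMSC. These overlapped, and its log2 change was -0.21 (SE 0.24, adjusted p = 0.448) against 1.40, called, under TMM. Atp5h had -0.15 and 1.47 on the 2 scales in the same way. Atp5a1, the partner of Atp5b in the catalytic head, had -0.90 with an adjusted p of 0.0258, under the fold threshold, and 0.66 under TMM.

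**Figure D3:**
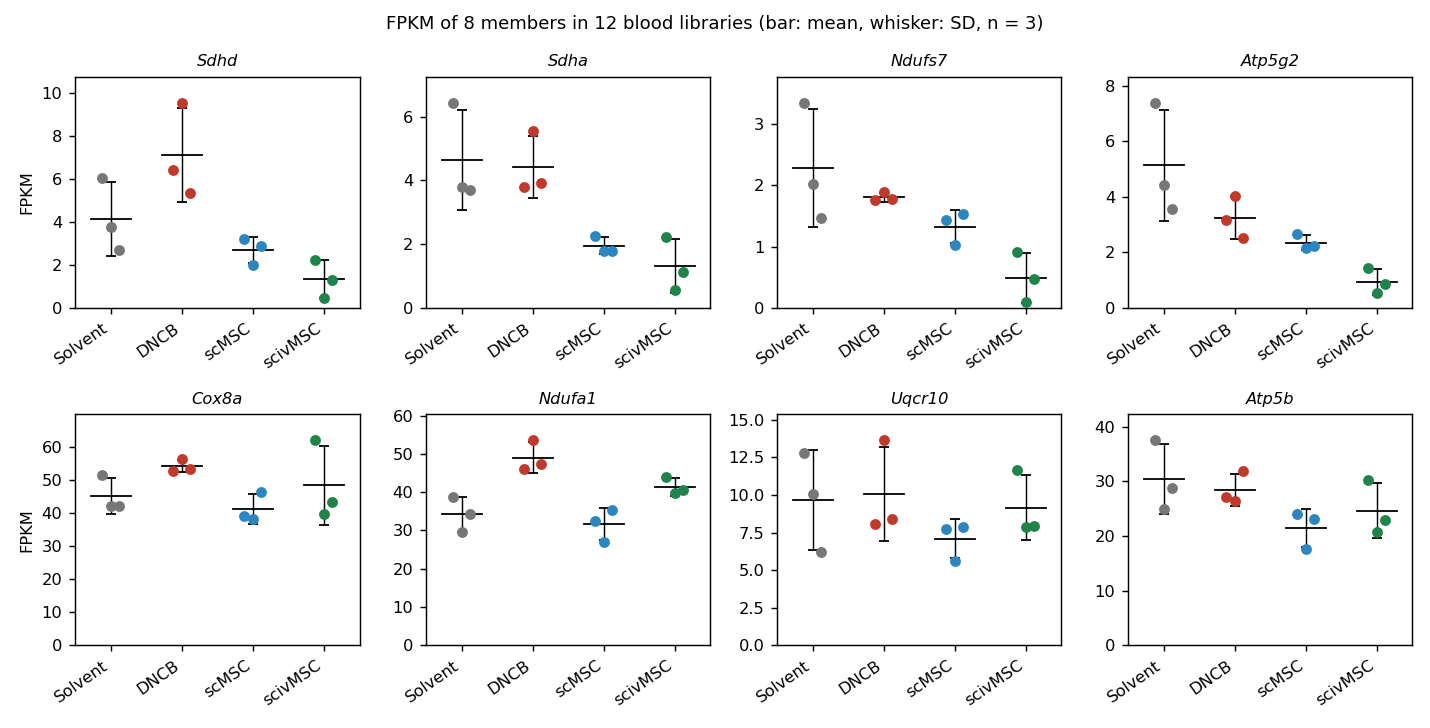
FPKM (y axes, linear from 0) of 8 members in the 4 groups (x axes). Points are libraries, bars means and whiskers SD of 3 libraries. The upper genes, Sdhd, Sdha, Ndufs7 and Atp5g2, were called lower in scivMSC against DNCB with total-count scaling, a call that TMM removed. For the lower genes, Cox8a, Ndufa1, Uqcr10 and Atp5b, the log2 change was between -0.25 and -0.14, not called, and they were called higher under TMM.

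Shares within the members do not depend on how libraries are scaled. Complex II took 2.74%, 2.68% and 2.21% of the members' summed FPKM in Solvent, 2.78%, 3.62% and 2.58% in DNCB, 2.02%, 1.96% and 1.80% in scMSC, and 1.49%, 0.549% and 1.00% in scivMSC. Every scivMSC library lay below every scMSC library, and these below every Solvent and DNCB library, while Solvent and DNCB overlapped. The 7 core genes of complex I took 3.79%, 3.37% and 2.82% in Solvent, 2.33%, 2.41% and 2.21% in DNCB, 2.44%, 2.24% and 2.07% in scMSC, and 1.65%, 0.678% and 0.985% in scivMSC. Here Solvent was the highest group, DNCB and scMSC overlapped, and scivMSC was the lowest.

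The share of complex IV was 32.4% ± 0.433 (SD, n = 3) in Solvent, 35.4% ± 1.41 in DNCB, 36.2% ± 1.39 in scMSC and 37.5% ± 0.385 in scivMSC. All scivMSC libraries lay above all Solvent and DNCB libraries. The FPKM ratio of Sdha to Cox8a was 0.0720, 0.0985 and 0.0732 in DNCB and 0.0360, 0.0144 and 0.0258 in scivMSC, without overlap. These pairs and shares were chosen after the values were seen and are given without a test.

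**Figure D4:**
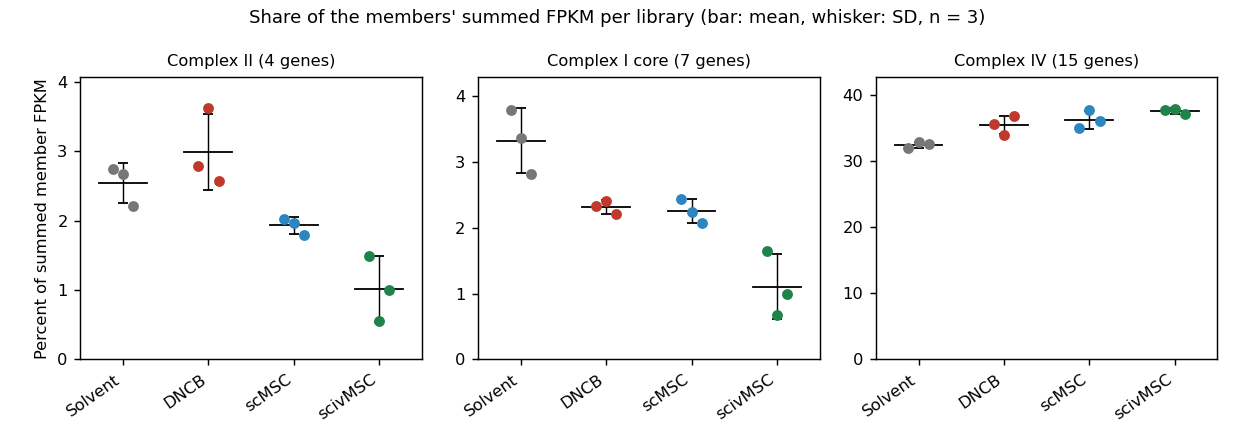
Percent of the members' summed FPKM (y axes, linear from 0) taken by complex II, by the complex I core genes and by complex IV in the 4 groups (x axes). Points are libraries, bars means and whiskers SD of 3 libraries. The scivMSC libraries are the lowest for complex II, at 0.549% to 1.49%, and for the core genes, at 0.678% to 1.65%, while complex IV ranges from 31.9% to 37.8% over all libraries.

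The members that stayed near the DNCB level in scivMSC were in general the more abundant ones. Over the 72 tested members, Spearman's rho between the log2 fold change and the mean FPKM was 0.47 in scivMSC against DNCB, and over all tested genes with a recovered length it was 0.21 (n = 5478). With the recovered length the values were -0.33 and -0.23. The genes share the same 12 libraries and their depth, so these coefficients are descriptions across genes. The mean FPKM includes the DNCB and scivMSC libraries that give the change, so part of the relation with abundance may be built in. The 22 lower members had a median mean FPKM of 2.72, and the 27 that were higher under TMM had 7.51. The 23 members called on neither scale had 1.82, below both. Of the 24 members with a mean FPKM of at least 5, 1 was called lower, Cox7a2l, where 46.8% of the 1093 tested genes at that level were called lower. Ndufs4 and Atp5l were exceptions to the relation with abundance and with length. Ndufs4 had a mean FPKM of 1.97 and Atp5l a recovered length of 6839 bases, and their log2 fold changes were 0.21 and 0.13.

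**Figure D5:**
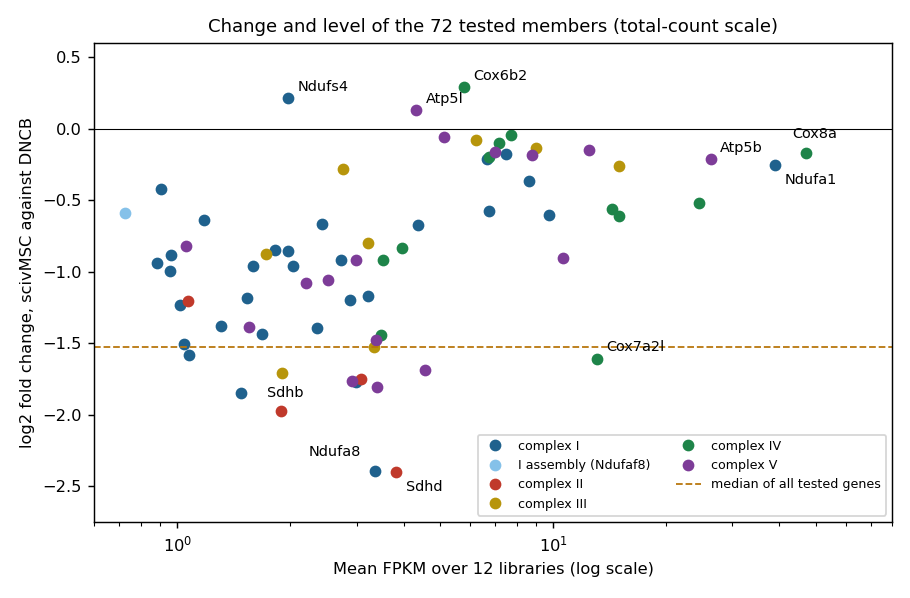
Log2 fold change in scivMSC against DNCB with total-count scaling (y axis) against the mean FPKM over 12 libraries (x axis, log scale) for the 72 tested members. Points are genes coloured by complex, and the dashed line is the median of all tested genes at -1.53. The members above 20 FPKM lie between -0.52 and -0.17, and complex II lies between -2.40 and -1.20. TMM scaling raises the points by 1.35 to 1.73, so that 58 lie above 0.

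In the direct comparison of the routes, scivMSC against scMSC, 1 of 72 members was called lower (1.39%), where 30.4% of all tested genes were called lower. This was Atp5g2, with an FPKM of 2.66, 2.15 and 2.23 in scMSC and 1.45, 0.526 and 0.862 in scivMSC, without overlap. Its log2 change was -1.29 (SE 0.43, adjusted p = 0.0339), and -0.45 (adjusted p = 0.0803) under TMM. The median of the members was -0.20, above the -0.87 of all tested genes, and 65 of 72 members lay above that median. Under TMM 23 members were called higher and 0 lower, where 13.1% of tested genes were called higher. The count of 1 became 19 without scivMSC replicate 1, and 0 without scMSC replicate 1, 2 or 3 or scivMSC replicate 2 or 3. Without scivMSC replicate 1, 2925 of all 5527 tested genes were called lower.

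Against Solvent, 0 of 72 members were called in scMSC, where 0.651% of all tested genes were called in either direction. At an unadjusted p under 0.05, 22 of 72 members (30.6%) were lower by edgeR, where 23.9% of all tested genes were lower, and DESeq2 called 2. The count was 8 without scivMSC replicate 1 and 12 without scivMSC replicate 2, all lower. In those fits 480 and 712 of all 5527 tested genes were called lower. In scivMSC against Solvent, 32 members were called lower (44.4%) and 0 higher, where 59.2% of all tested genes were called lower. The 32 included all 4 complex II genes and all 6 tested core subunits of complex I, and became 17 without Solvent replicate 1. Under TMM 28 members were higher and 1 lower, where 22.4% and 13.4% of tested genes were. Atp5g2 was the 1 member called lower on both scales, with adjusted p = 0.000363 at a log2 value of -2.43 for total counts and adjusted p = 0.000658 for TMM. Over the 4 groups together, 28 of 72 members (38.9%) differed by the F test, where 72.3% of all tested genes did. The 28 became 43 without scivMSC replicate 1, and 18 without Solvent replicate 1 or scivMSC replicate 3. In these fits 4323, 3759 and 3579 of all 5527 tested genes differed.

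Other genes of the pathway were counted from a list of 71 nuclear genes, of which 20 were tested. Of the 20, 12 (60.0%) were called lower in scivMSC against DNCB and 0 higher, with a median of -1.43, where 62.0% of all tested genes were called lower with a median of -1.53. Under TMM 3 were higher and 2 lower, where 20.6% and 18.9% of all tested genes were. Cytochrome c itself, Cycs, was called lower at -1.49 (adjusted p = 0.00648), and lay at 0.02 under TMM. All 4 tested regulators, Gabpa, Gabpb2, Yy1 and Esrra, were called lower, between -2.66 and -1.91. Of these, Gabpa, a subunit of the nuclear respiratory factor that binds ETS sites, was called lower on both scales, at -2.66 and -1.10. Lyrm2, a complex I assembly factor, was called lower on both scales as well, at -2.93 and -1.42. Atpif1, the inhibitor of the ATP synthase, had 0.51 (adjusted p = 0.134) and was higher under TMM, at 2.19. In scMSC against DNCB, 3 of the 20, Gabpa, Yy1 and Higd2a, were called lower, with 0 under TMM. That share was below the 24.9% of all tested genes called lower, and under TMM 681 of 5527 were. In DNCB against Solvent 0 were called, and 1 higher and 2 lower under TMM. Beside these stood calls for 20.5% of all tested genes, and under TMM 888 upward and 635 downward calls.

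The 13 subunit genes of the mitochondrial genome were far more abundant than the nuclear members, with a summed FPKM between 2725 and 6060 per library. By edgeR, 0 were called in DNCB against Solvent and 0 in either MSC group against DNCB. Of all tested genes, 20.5% were called in DNCB against Solvent, and 24.9% and 62.0% were called lower in scMSC and scivMSC against DNCB. At an unadjusted p under 0.05 by edgeR, 1 of the 13 differed in DNCB against Solvent. Against DNCB, 1 did in scMSC and 0 in scivMSC. Of all tested genes, 33.1%, 39.7% and 70.9% did in these comparisons. In scivMSC against DNCB the median of the 13 was -0.41, and 7 (53.8%) were called higher under TMM, where 20.6% of all tested genes were. Against Solvent, 5 of 13 (38.5%), mt-Nd1, mt-Nd2, mt-Nd3, mt-Nd5 and mt-Nd6, were called lower in scivMSC, where 59.2% of all tested genes were, and the median of the 13 was -0.55. Under TMM that comparison had 3 higher and 0 lower, with a median of 0.86. By edgeR 0 were called in scMSC against Solvent, where 6 had an unadjusted p under 0.05, beside 28.3% of all tested genes. In scivMSC against scMSC 0 were called and 0 had an unadjusted p under 0.05 by edgeR, where 46.0% of all tested genes did. Under TMM 0 and 2 of the 13 were called higher in these comparisons, beside 403 and 722 of all 5527 tested genes. Under TMM 1 was also called lower in DNCB against Solvent, where 11.5% of all tested genes were. The summed level of the 13 in scivMSC, 2725 to 4883, overlapped with that in DNCB, 3979 to 4846.

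Marker genes of blood cell types moved with the groups. The 10 neutrophil markers were all called higher in DNCB against Solvent, with a summed FPKM of 219.9 to 444.2 in Solvent and 6956 to 10927 in DNCB, while 0 members were called. In scMSC and scivMSC they summed to 572.6 to 714.2 and 238.6 to 723.8, and all 10 were lower than in DNCB on both scales. The 7 tested monocyte markers had 3 higher calls in DNCB against Solvent and 6 lower calls in scivMSC against DNCB, with sums of 419.5 to 680.3 in DNCB and 81.3 to 113.2 in scivMSC. In scMSC against DNCB 5 of them were lower, with a sum of 89.5 to 101.7, and the Solvent sum was 70.2 to 206.4. Under TMM 3 monocyte markers were called higher in DNCB than in Solvent, and 4 lower in scMSC than in DNCB. In scivMSC 3 were lower than in DNCB and 1 higher under TMM. As a background for these neutrophil and monocyte counts, DNCB raised 864 of all 5527 tested genes on total counts, and 888 under TMM. Lower calls against DNCB covered 24.9% of all tested genes in scMSC and 62.0% in scivMSC. Under TMM these were 681 and 1043 genes, and 1137 were called higher in scivMSC. The T cell markers summed to 56.1 to 92.8 FPKM in Solvent, 21.4 to 30.7 in DNCB, 28.9 to 39.2 in scMSC and 7.27 to 19.7 in scivMSC, and the B cell markers to 40.5 to 128.1, 11.3 to 32.3, 12.4 to 17.1 and 3.14 to 7.63. In DNCB against Solvent, 7 of 8 T cell and 6 of 6 B cell markers were called lower, also under TMM. Of all 5527 tested genes, 269 were, and 635 under TMM. In scivMSC against DNCB, 2 of 8 T cell and 6 of 6 B cell markers were called lower, and 0 of either under TMM. Beside these, 62.0% of all tested genes were called lower, and 18.9% under TMM. All 8 T cell markers lay above the median of all tested genes there, and 5 of 6 B cell markers below it. With scMSC in place of scivMSC, 7 T cell and 0 B cell markers were called higher under TMM, where 8.74% of all tested genes were.

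Of 5 tested NK cell markers, 2 were called lower in scivMSC against DNCB on the total-count scale and 2 higher under TMM. Of all tested genes, 62.0% and 20.6% were. Of 3 tested eosinophil and basophil markers, 1 was higher and 2 were lower in that comparison, and 1 of the 7 on the list was at 0 in all Solvent libraries. The 8 tested erythroid markers and the 7 platelet markers had 0 lower calls in scivMSC against DNCB, with medians of 0.52 and 0.32. All 8 and all 7 were called higher under TMM, where 20.6% of all tested genes were. The erythroid and platelet markers summed to 5042 to 6287 and 599.8 to 822.1 FPKM in DNCB. In scivMSC the sums were 5600 to 6393 and 756.0 to 888.9. The part of these cell types in the changes of the members was not tested.

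Some members have near-identical copies elsewhere in the genome, among which reads may have been split. The row Ndufa12-ps had a mean FPKM of 2.95, against 0.340 for Ndufa12 itself, which was not tested. Cox5b-ps had 1.89 against 3.49 for Cox5b, so the level of Cox5b is uncertain. Ndufb1-ps, set aside for its name, had 3.90. The 17 members that were not tested were Ndufs1, Ndufa12, Ndufab1, Ndufb2, Ndufb5, Ndufc1, Ndufaf1 to Ndufaf7, Atp5g1, Cox6a2, Cox7a1 and Cox8b, and their highest FPKM in any library was 1.27. Ndufs1, with a recovered length of 8677 bases, reached 647 counts in a library without passing the filter.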

How the data were processed

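Whole-blood RNA in 12 libraries of 4 groups was analysed, with groups taken from the labels. The authors deposited a single table of 25247 genes that pairs estimated counts with FPKM for the 12 libraries. The submitters' processing notes name Bowtie 0.12.2, HISAT2 2.0, StringTie 1.3.0 and the build mm8, without their roles. Gene positions in the table lay within 1000 bases of RefSeq positions in GRCm38.p6 for 97.1% of 21414 matched symbols and for all 89 members, so coordinates are given as in the table and match that assembly. The deposited counts are whole numbers, but 29.0% of values from 1 to 12 equal 4, 16.0% equal 8 and 9.75% equal 12. A fragment may thus be worth about 4 counts, which gives 13044941 to 16284855 fragments per library. The deposited FPKM values are relative to all counts, haemoglobin included.

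Counts were tested with edgeR 4.0.16 (quasi-likelihood F test, R 4.3.3) in 1 fit of 4 group means over all 12 libraries, scaled by total counts. The filter was an FPKM of 1 or more in 3 or more libraries, which left 5527 genes, and p-values were adjusted over all of them by the Benjamini-Hochberg method. Standard errors were derived from the fitted log2 fold change and its F statistic. Labels and methods name no sequencing batch and do not say whether each library came from 1 mouse. Libraries were treated as independent. The alternatives were TMM, totals without the 10 haemoglobin genes, DESeq2 1.42.0, limma 3.58.1 on log2(FPKM + 1) and on log2(FPKM + 0.1), no filter, a mean FPKM of at least 5, only the 2 groups compared, a replicate block, and leaving out each library. The length of a gene was recovered as count divided by FPKM and by the library total. On simulated counts for 5527 genes, with 200 changed 8-fold in DNCB against Solvent, edgeR recovered 189 with 17 false calls. DESeq2 recovered 191 with 36 false calls, and limma 179 with 12. The simulation held no general shift between groups, so it cannot speak for the choice of scaling or for changes near 2-fold.

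Named members are the 3 most abundant of each complex, the 3 largest called changes in each direction of 4 contrasts, all complex II genes, the complex I core genes, the complex IV isoforms and the assembly factor with the largest change. Ndufa5, Ndufs4, Atp5l, Uqcrc1, Uqcrfs1, Atp5pb, Atp5c1, Atp5d and the other called genes named were chosen after their values were seen. The members, lists and tests were chosen with earlier results of these data known. No sequences were used, and 1 named member is not reported here.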

Additional observations from a re-analysis of the deposited data

How the results depend on the processing

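The direction of the calls rested on the scaling. In scivMSC against DNCB, 22 members were lower and 0 higher on total counts, and 0 were lower and 27 higher under each of TMM and DESeq2, with medians of 0.66 and 0.65 in place of -0.88. Of the 22, 0 were among the 27 called higher under TMM. In scMSC against DNCB, 4 were lower on total counts, and 0 were lower and 1 higher under each, with medians of 0.014 and -0.031 in place of -0.66. The counts under TMM and DESeq2 were 23 and 25, all higher, between the routes, 29 (28 higher) and 28 (all higher) in scivMSC against Solvent, 2 and 2, all lower, in scMSC against Solvent, 2 and 3, all lower, in DNCB against Solvent, and 46 and 51 over the 4 groups. Without haemoglobin in the totals the counts were 12 for scivMSC and 0 for scMSC against DNCB, with medians of -0.36 and -0.28, 2 between the routes, and 5 for scMSC and 2 for DNCB against Solvent. Of all 5527 tested genes, 1137 and 1153 were higher under TMM and DESeq2 in scivMSC against DNCB, and 483 and 489 in scMSC against DNCB. Between the routes 722 and 815 were higher, and in scivMSC against Solvent 1240 and 1294. Over the 4 groups 3867 and 4187 differed. Without haemoglobin in the totals, 2567 and 988 of 5523 tested genes were lower in scivMSC and scMSC against DNCB. Between the routes 1658 were lower, and against Solvent 216 were lower in scMSC and 587 in DNCB. The cause of the difference between the scalings was not tested.

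Under TMM and DESeq2 these log2 fold changes in scivMSC against DNCB turned from below to above 0: Ndufa1 1.44 and 1.43, Ndufa2 1.08 and 1.07, Ndufb11 1.28 and 1.28, Ndufs3 0.61 and 0.61, Ndufv2 0.54 and 0.52, Ndufaf8 0.97 and 0.96, Sdhc 0.26 and 0.25, Uqcrh 1.39 and 1.38, Uqcr10 1.53 and 1.52, Uqcr11 1.52 and 1.51, Cox4i1 1.02 and 1.01, Cox5a 0.74 and 0.73, Cox5b 0.14 and 0.13, Cox6a1 1.10 and 1.09, Cox6b1 1.06 and 1.05, Cox7a2 1.59 and 1.58, Cox7b 1.44 and 1.43, Cox8a 1.45 and 1.44, Atp5a1 0.66 and 0.65, Atp5b 1.40 and 1.39, and Atp5h 1.47 and 1.46. Without haemoglobin in the totals, Ndufa1 had 0.33, Ndufb11 0.19, Uqcrh 0.29, Uqcr10 0.44, Uqcr11 0.48, Cox6a1 0.026, Cox7a2 0.47, Cox7b 0.35, Cox8a 0.38, Atp5b 0.33 and Atp5h 0.39.

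With limma on log2(FPKM + 1) the members called, all lower, were 13 for scivMSC and 2 for scMSC against DNCB, 5 for scMSC and 21 for scivMSC against Solvent, and 0 between the routes, and the scivMSC against DNCB median was -0.59. Of all 5527 tested genes, 1970, 915, 167, 1699 and 325 were called lower in these comparisons, in the same order. With log2(FPKM + 0.1), scMSC against DNCB had 8 and the routes differed in 3, where 1451 and 1944 of all tested genes were lower. Without a filter the members had 0 and 0 calls in these comparisons, where 1174 and 2191 of 25247 genes were lower. At a mean FPKM of at least 5, which left 24 members, the counts were 1 in scivMSC against DNCB with a median of -0.21, 0 in scMSC against DNCB, 0 in scivMSC against scMSC, 2 in scivMSC against Solvent and 3 over the 4 groups. Of the 1095 genes in that fit, 507, 317, 169 and 427 were lower in these comparisons, and 760 differed over the 4 groups. With only the 2 groups compared, 11 members were called in scMSC against DNCB, 0 in scivMSC against scMSC and 17 in scMSC against Solvent. In those fits 1804 of all 5527 tested genes were called lower in scMSC against DNCB and 1016 in scMSC against Solvent. In scivMSC against scMSC only 4 of all tested genes were called.

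Leaving out single libraries gave 18 to 40 lower members in scivMSC against DNCB, with medians of -1.23 to -0.65, 0 to 10 in scMSC against DNCB, with medians of -0.82 to -0.50, and 0 to 19 in scivMSC against scMSC. It gave 0 to 12 in scMSC against Solvent, 17 to 40 in scivMSC against Solvent, 0 in DNCB against Solvent, with medians of -0.14 to 0.19, and 18 to 43 over the 4 groups. In scivMSC against DNCB, Uqcr10 ranged from -0.36 to 0.15, Uqcr11 from -0.24 to 0.18 and Atp5h from -0.46 to 0.027 in the same way. Without scivMSC replicate 1, 3903 of all 5527 tested genes were lower in scivMSC against DNCB. In that fit 2925 were lower in scivMSC against scMSC, 3739 in scivMSC against Solvent, and 4323 differed over the 4 groups.

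Groups share replicate numbers. Over 18 same-numbered pairs the correlation of deviations from the group means ran from -0.156 to 0.132, and 2 were over 0.1, so the numbers were not taken to pair the mice. With the replicate block, 8 members were called lower in scMSC against DNCB, where 1470 of 5527 tested genes were. In scivMSC against scMSC 3 were, beside 1905, in scivMSC against DNCB 31, beside 3552, and in scivMSC against Solvent 33, beside 3320. In the other 2 comparisons 0 members were called. Of the libraries, 8 of 12 correlated best with their own number, a hint from the data only. Counts of the lowest members limit single values, as in scivMSC replicate 2, where Ndufs7 had 10 counts and Ndufs8 12.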
